A study of Mus musculus with 170 samples.

Results

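Thymic epithelial cells of old mice were compared with those of young mice. The libraries were chosen by cell type and age in the sample titles, which gave 10 of the 170 libraries of the series, 5 old and 5 young. Old mice were 22 to 24 months of age and young mice 2 months, all on the background labelled C57/Bl6, healthy with no agent or engineered allele named. Cells were isolated by flow cytometry from thymus, and tissue of 5 animals was pooled for each library, so the spread given here is between pools and a p-value reflects that spread only. The sources used here name neither the gates nor the sex of the animals. Where the age change was set against other cells of the series, these were thymic fibroblasts (4 old and 4 young libraries) and skin keratinocytes (3 old and 4 young libraries) of the same design.

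The thymic epithelium supports the development of T cells. Cortical epithelial cells attract blood-borne progenitors with chemokines, feed them with cytokines and select them on self peptides made by a dedicated protease set, while medullary epithelial cells display tissue-restricted antigens that remove self-reactive cells. Both arise from progenitors that depend on the transcription factor FOXN1. The organ shrinks with age, which is known as thymic involution.

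Reads were counted per gene from the 3' ends of mRNA. Levels below are normalised read counts (CPM, scaled by the TMM method). Each log2 fold change is that of old over young cells and carries its standard error (SE). It was tested with edgeR's quasi-likelihood test and Benjamini-Hochberg adjustment over all genes tested. A gene is said to have risen or fallen only where its adjusted p was below 0.05. Total counts ran from 1628522 to 3191241 in the old libraries and from 738488 to 5607934 in the young libraries, and did not differ detectably between ages (exact permutation test, two-sided, p = 0.294). Between 18201 and 32378 genes had a count in a library.

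The identity of the libraries was checked first with 3 markers given for this cell type. Foxn1 (chr11:78357577-78386558), the master transcription factor of the thymic epithelium, had 37.96, 38.9, 40.4, 34.2 and 38.3 CPM in the old libraries. Young libraries had 58.5, 57.8, 87.9, 65.2 and 60.2 CPM. It was present in all 10 libraries and was highest in young replicate 3. Krt5, a keratin of basal and medullary epithelial cells, had 1068, 1325, 959, 1143 and 1177 CPM in the old libraries. Young libraries had 581, 665, 632, 665 and 500.0 CPM. Psmb11, the thymus-specific proteasome subunit of cortical cells, had 4.67, 13.8, 10.6, 12.9 and 17.7 CPM in the old libraries. Young libraries had 39.9, 60.8, 52.8, 50.7 and 36.5 CPM. Over the 46 groups of the series, young and old thymic epithelial cells held the 2 highest mean levels of Foxn1, Psmb11, Prss16, Il7 and Pax1, so the labelled cell type carried these defining markers. Young thymic fibroblasts came close to old epithelial cells for Psmb11 (9.62 beside 11.7 CPM) and Prss16 (38.8 beside 52.3 CPM). For Ccl25, young epithelial cells were highest, but young thymic fibroblasts (112 CPM) exceeded old epithelial cells (84.2 CPM). These means are without TMM scaling. Krt5 was higher in keratinocytes, up to 8346 CPM on average. A pair of known markers was low and did not pass the filter on low counts: Aire, the regulator of tissue-restricted antigens, had 0.662 to 2.99 CPM in old libraries, against 1.43 to 6.42 CPM in young libraries, and Dll4, the Notch ligand of the cortex, had 1.20 to 10.5 CPM in old libraries, against 1.13 to 8.11 CPM in young libraries.

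Libraries that stood apart were looked for before any comparison. Young replicate 1 lay far from the others on the first principal component, which held 35.8% of the variance, at 70.8 against 18.5 to 27.2 for the other young libraries, and it was the shallowest library. It was also the only one with more than trace counts of the Y-linked gene Ddx3y, 25.7 CPM against 0 to 1.61 CPM in the other 9. Xist, expressed from the inactive X chromosome, had 454, 402, 372, 393 and 359.9 CPM in the old libraries. Young libraries had 134, 276, 250.1, 231 and 322 CPM, with no overlap of the groups (log2 fold change 0.69 ± 0.18 (SE), adjusted p = 0.0148). Whether the sex of the pooled animals differed between the ages was not tested. Old replicate 5 had the highest summed level of 16 endothelial markers, 2510 CPM against 280 to 636 CPM in the other old libraries and 326 to 1288 CPM in the young ones. Without young replicate 1 the number of changed genes was 1497, and without old replicate 5 it was 1495, against 1531 with all libraries.

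Promoter sequences of a few genes on which the results turn are shown here, since the factor that drives the cortical program and the factors of the stress response each have a known core motif. They are RefSeq promoters of GRCm38.p6, from 250 bases before to 50 bases after the annotated start, 5' to 3' on the gene's strand. Capitals mark each match to GACGC, the core bound by FOXN1, on either strand in the first pair, and to TGANTCA, the AP-1 site (the same on both strands), in the second pair; the motifs do not overlap each other. Psmb11 (chr14:54625060-54625359, plus strand) and the chemokine gene Ccl25 (chr8:4324960-4325259, plus strand, the first with a match among 2 RefSeq entries) stand for cortical genes that fell, and Sprr1a (chr3:92485832-92486131, minus strand) and Dhrs9 (chr2:69380212-69380511, plus strand) for genes that rose.
Psmb11: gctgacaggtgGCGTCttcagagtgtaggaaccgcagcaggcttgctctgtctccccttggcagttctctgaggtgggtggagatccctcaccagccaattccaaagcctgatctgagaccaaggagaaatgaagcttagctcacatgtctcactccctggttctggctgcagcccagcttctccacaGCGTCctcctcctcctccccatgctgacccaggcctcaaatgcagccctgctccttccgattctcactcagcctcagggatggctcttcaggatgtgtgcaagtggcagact
Ccl25: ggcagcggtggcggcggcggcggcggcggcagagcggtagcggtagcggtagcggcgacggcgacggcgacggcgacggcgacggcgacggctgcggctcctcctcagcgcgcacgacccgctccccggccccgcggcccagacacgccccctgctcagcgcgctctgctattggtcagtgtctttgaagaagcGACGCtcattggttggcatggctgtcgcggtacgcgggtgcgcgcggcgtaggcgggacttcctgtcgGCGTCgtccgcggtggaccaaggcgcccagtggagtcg
Sprr1a: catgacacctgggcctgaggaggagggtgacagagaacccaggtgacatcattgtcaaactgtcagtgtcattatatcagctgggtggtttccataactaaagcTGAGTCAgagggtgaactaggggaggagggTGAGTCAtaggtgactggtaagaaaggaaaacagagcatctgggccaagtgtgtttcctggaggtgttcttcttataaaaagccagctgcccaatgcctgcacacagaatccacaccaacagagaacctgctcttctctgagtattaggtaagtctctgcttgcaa
Dhrs9: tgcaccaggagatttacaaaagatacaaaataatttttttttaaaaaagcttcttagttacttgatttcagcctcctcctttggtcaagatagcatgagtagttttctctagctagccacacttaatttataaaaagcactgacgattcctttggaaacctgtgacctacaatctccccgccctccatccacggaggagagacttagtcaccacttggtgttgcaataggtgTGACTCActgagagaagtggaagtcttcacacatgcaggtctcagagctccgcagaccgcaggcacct
A match is a run of letters and does not show binding. The genes were picked by hand and an entry was shown only if it held the motif, so every sequence shown has a match by choice. Psmb11 and Ccl25 each held 2 matches to GACGC and Sprr1a 2 matches to TGANTCA, whereas Dhrs9 held 1. GACGC stood in 39.4% of the promoters of genes that rose (241 of 611 with a promoter in the table) and in 46.7% of those that fell (241 of 516), beside 50.2% of the promoters of all genes tested (4818 of 9594). Of the 11 cortical genes that fell 9 had a promoter in the table and 5 held it. TGANTCA stood in 10.1% of promoters of genes that rose (62), in 6.59% of those that fell (34) and in 6.30% of all (604).

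Over all genes, the old and the young thymic epithelium differed at 1531 of 13428 genes tested (11.4%). Of these 860 were higher in old cells (6.40%) and 671 lower (5.00%). The values of the 5 old libraries did not overlap those of the 5 young libraries in 1393 genes (10.4%). These shares are the background against which the counts within gene groups are read. With 1 library left out at a time, 963 of the 1531 genes were called in every fit, and the count lay between 1220 and 1497.

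Genes of the cortical epithelium were mostly lower in old cells. Of 19 listed genes 18 passed the filter, and 11 of these fell, 2 rose and 5 were not called, with a median log2 fold change of -0.71 beside 0.00 over all genes tested. The genes that fell included the transcription factor genes Foxn1 and Pax1, the peptide-making proteases Psmb11, Prss16 and Ctsl, and the thymocyte-directed signals Ccl25, Cxcl12, Kitl and Il7. In bulk samples fewer cortical cells and less RNA per cortical cell cannot be told apart. Markers of thymocytes, which crowd the cortex and can be carried over with its cells, moved the same way and are given further below; their part in the result was not tested.

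Foxn1 itself fell by less than most of the other cortical genes that fell. Its levels, given above, did not overlap between the ages (log2 fold change -0.80 ± 0.15 (SE), adjusted p = 0.00206). Pax1, needed for thymus formation in mice, had 122, 109, 72.1, 91.8 and 74.8 CPM in the old libraries. Young libraries had 127, 160.4, 134, 120.3 and 167 CPM. The highest old library overlapped the lowest young ones (log2 fold change -0.60 ± 0.16 (SE), adjusted p = 0.0231), and the call was lost without old replicate 4 or 5 or young replicate 2 or 5 (adjusted p 0.0513 to 0.060).

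Among the proteases, the thymoproteasome subunit Psmb11 was lower in every old library than in any young one (log2 fold change -1.98 ± 0.26 (SE), adjusted p = 5.4e-05). Prss16, a serine protease that trims class II peptides in cortical cells, had 51.98, 74.2, 25.8, 58.8 and 54.5 CPM in the old libraries. Young libraries had 133, 188, 183, 192 and 176 CPM. The groups did not overlap, with old replicate 3 lowest (log2 fold change -1.72 ± 0.20 (SE), adjusted p = 2.26e-05). Ctsl, the cathepsin that cuts the invariant chain in cortical cells, had 4816, 4633, 5022, 4647 and 3956 CPM in the old libraries. Young libraries had 7617, 9563, 8677, 11330.1 and 9847 CPM. It was among the most abundant transcripts of the group and every young library exceeded every old one (log2 fold change -1.03 ± 0.14 (SE), adjusted p = 0.000102).

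Chemokines and growth factors made by the cortex showed the same direction. Ccl25 (chr8:4325210-4360020), which draws progenitors through CCR9, had 65.99, 99.9, 60.2, 125 and 78.3 CPM in the old libraries. Young libraries had 277, 404, 357, 438 and 309 CPM. No old library reached the lowest young one (log2 fold change -2.05 ± 0.19 (SE), adjusted p = 2.16e-06). Cxcl12, the CXCR4 ligand, had 201, 239.9, 164, 249.3 and 403 CPM in the old libraries. Young libraries had 578, 582, 593, 557 and 579 CPM. Its young values were tight and old replicate 5 was the highest of the old ones (log2 fold change -1.19 ± 0.19 (SE), adjusted p = 0.000323). Kitl, stem cell factor, had 44.4, 48.5, 52.9, 63.6 and 123 CPM in the old libraries. Young libraries had 193, 131, 144, 178 and 136 CPM. Old replicate 5 was again high, close to the lowest young library, and the groups did not overlap (log2 fold change -1.20 ± 0.24 (SE), adjusted p = 0.00258). Il7, the cytokine that early thymocytes need, had 228, 211, 198, 179 and 138 CPM in the old libraries. Young libraries had 308, 271, 273, 347 and 263 CPM, with separate groups and a smaller difference (log2 fold change -0.62 ± 0.15 (SE), adjusted p = 0.00931).

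The surface receptor Ly75 (DEC-205) averaged 51.2 ± 13.1 CPM in old libraries and 119 ± 19.5 CPM in young libraries (log2 fold change -1.21 ± 0.18 (SE), adjusted p = 0.000171), and Tbata, a thymus and brain gene that is known to limit epithelial proliferation in mice, averaged 88.4 ± 23.6 CPM in old libraries and 366 ± 51.04 CPM in young libraries (log2 fold change -2.04 ± 0.18 (SE), adjusted p = 7.3e-07; SD, n = 5 each). Both were lower in every old library than in any young one. The keratins of cortical cells did not pass: Krt8 had a log2 fold change of -0.24 ± 0.15 (adjusted p = 0.372) and Krt18 -0.26 ± 0.16 (0.361). Neither did Cd83, Eya1 and Isl1, with log2 fold changes of -0.39, 0.13 and 0.28. The peptidase gene Enpep rose, by 0.77 ± 0.20 (adjusted p = 0.0173). The Enpep call was lost without old replicate 1 (adjusted p = 0.0567) or young replicate 5 (0.0631).

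**Figure D1:**
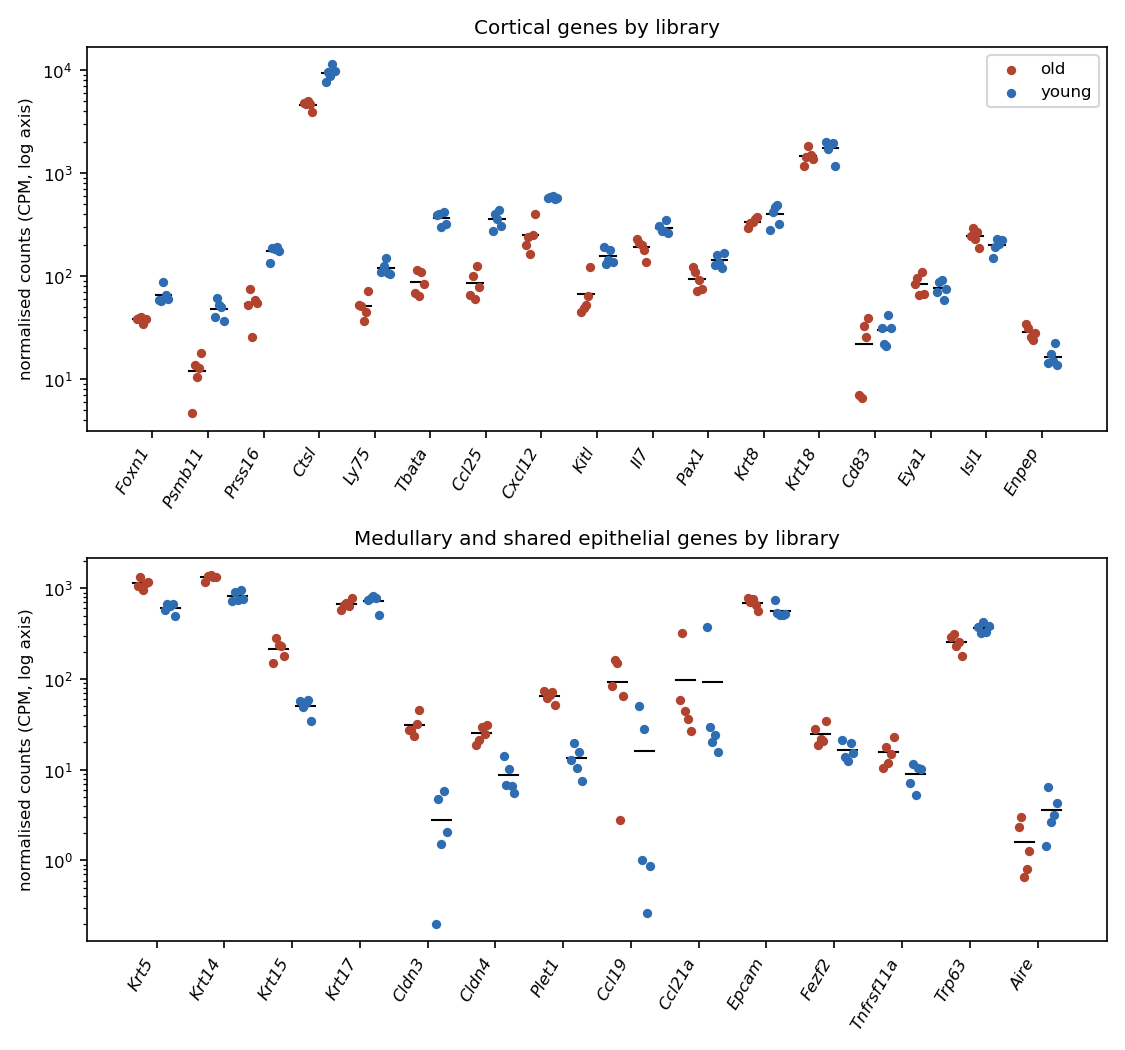
Normalised counts (CPM, log axis) of cortical genes (top) and medullary or shared epithelial genes (bottom) in the 5 old (left of each pair) and 5 young (right) thymic epithelial libraries; points are libraries, bars are means, and values below 0.2 CPM are drawn at 0.2. Foxn1 to Il7 lie lower in every old library than in any young one, whereas Krt5, Krt14, Krt15, Cldn3, Cldn4 and Plet1 lie higher.

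Genes of the medullary epithelium and of its progenitors went both ways, with more rising than falling. Of 25 listed genes 22 passed the filter, 7 rose, 2 fell and 13 were not called, and the median log2 fold change was 0.30. Krt15, a keratin of basal progenitors, had 149, 283, 239.5, 234 and 180.3 CPM in the old libraries. Young libraries had 57.1, 48.97, 54.7, 58.6 and 34.7 CPM. All old libraries lay above all young ones (log2 fold change 2.11 ± 0.19 (SE), adjusted p = 1.18e-06). Krt5 was likewise separated (log2 fold change 0.90 ± 0.13 (SE), adjusted p = 0.000166), and Krt14, its pairing partner, averaged 1327 ± 87.2 CPM in old libraries and 824 ± 103 CPM in young libraries (log2 fold change 0.69 ± 0.12 (SE), adjusted p = 0.00125; SD, n = 5 each).

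The claudins Cldn3 and Cldn4, tight junction proteins that mark medullary progenitors, rose together. Cldn3 had 27.4, 27.5, 23.8, 31.8 and 45.3 CPM in the old libraries. Young libraries had 0, 4.73, 1.51, 5.80 and 2.08 CPM. It was low in every young library and well above that in all old ones (log2 fold change 3.26 ± 0.37 (SE), adjusted p = 1.47e-05). Cldn4 had 18.7, 21.5, 29.8, 24.97 and 31.05 CPM in the old libraries. Young libraries had 14.3, 6.75, 10.2, 6.60 and 5.56 CPM, with young replicate 1 the highest young value and still below the old ones (log2 fold change 1.69 ± 0.27 (SE), adjusted p = 0.000375). Plet1, a surface protein of thymic epithelial progenitors in the mouse embryo, had 73.00, 62.2, 66.8, 71.3 and 51.6 CPM in the old libraries. Young libraries had 12.8, 19.9, 10.6, 15.8 and 7.47 CPM (log2 fold change 2.29 ± 0.23 (SE), adjusted p = 4.17e-06).

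Trp63, which maintains the epithelial stem cell state, averaged 257 ± 52.4 CPM in old libraries and 368 ± 45.1 CPM in young libraries (SD, n = 5 each). It fell, with a small difference (log2 fold change -0.52 ± 0.15 (SE), adjusted p = 0.0328), which was lost without old replicate 3, 4 or 5 or young replicate 3 or 5 (adjusted p 0.0535 to 0.0839). Ccl19, a chemokine that draws thymocytes into the medulla, had 82.9, 162, 151, 2.82 and 64.3 CPM in the old libraries. Young libraries had 49.9, 1.01, 27.9, 0.264 and 0.868 CPM. The values were uneven within each age and overlapped (log2 fold change 3.10 ± 0.96 (SE), adjusted p = 0.0449). The call was lost without old replicate 1, 2 or 3 or young replicate 2, 4 or 5. Ccl21a, its partner as a CCR7 ligand, had 58.99, 326, 44.3, 35.8 and 26.6 CPM in the old libraries. Young libraries had 377, 29.4, 19.995, 24.01 and 15.8 CPM. Old replicate 2 and young replicate 1 lay far above the rest, and the gene did not pass (log2 fold change 0.31 ± 0.85 (SE), adjusted p = 0.876). Near-identical Ccl21 genes can share its reads. Epcam, Krt17, Fezf2 and the RANK receptor gene Tnfrsf11a had log2 fold changes of 0.30, -0.12, 0.63 and 0.78, none past the threshold (adjusted p = 0.209, 0.669, 0.0948 and 0.095).

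Some medullary cells take on programs of other tissues, and lists for these programs were small after the filter. Keratinised, corneocyte-type genes rose in 6 of the 10 that passed (of 27 listed) and fell in 0, with a median of 0.99. Sprr1a, a cornified envelope precursor whose promoter is shown above, had 179, 322, 294, 357 and 279.8 CPM in the old libraries. Young libraries had 52.8, 45.3, 52.4, 45.9 and 26.9 CPM. The groups were far apart (log2 fold change 2.71 ± 0.21 (SE), adjusted p = 2.24e-07). Calml3, a calmodulin-like protein of stratified epithelia, averaged 58.2 ± 20.2 CPM in old libraries and 6.79 ± 3.07 CPM in young libraries (log2 fold change 2.92 ± 0.28 (SE), adjusted p = 2.28e-06), and the desmosomal cadherin Dsg3 14.97 ± 3.95 CPM in old libraries and 2.79 ± 0.995 CPM in young libraries (log2 fold change 2.55 ± 0.33 (SE), adjusted p = 4.67e-05; SD, n = 5 each). Krtdap, made by differentiating keratinocytes, had a log2 fold change of 1.05 ± 0.18 (adjusted p = 0.000894). The list also held members that did not pass, such as Krt10 at -0.55 and Tgm1 at -0.50.

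Tuft-type genes passed the filter in 8 of 18 cases, and 2 rose and 1 fell. Dclk1, a tuft cell kinase that other epithelia and neurons also express, averaged 195 ± 32.8 CPM in old libraries and 76.6 ± 16.4 CPM in young libraries (log2 fold change 1.37 ± 0.17 (SE), adjusted p = 2.66e-05), and Ltc4s, which makes leukotriene C4, rose by 1.08 ± 0.19 (adjusted p = 0.00082; SD, n = 5 each). Both were higher in thymic fibroblasts, where Dclk1 averaged 718 CPM in old and 711 CPM in young libraries and Ltc4s 305 CPM in old and 412 CPM in young libraries; fibroblast markers rose in the same epithelial libraries, as given below, and their part in this result was not tested. Alox5ap, a partner of lipoxygenase that macrophages and neutrophils also express, fell (log2 fold change -1.29 ± 0.35 (SE), adjusted p = 0.0211), a call lost without old replicate 2 or young replicate 4. The lineage factor gene Pou2f3 did not pass the filter. Of 8 microfold-type genes that passed 1 rose and 2 fell: Tnfaip2 averaged 179 ± 25.7 CPM in old libraries and 57.9 ± 17.4 CPM in young libraries (log2 fold change 1.59 ± 0.18 (SE), adjusted p = 1.67e-05), Fabp5 103 ± 21.5 CPM in old libraries and 258 ± 59.5 CPM in young libraries (log2 fold change -1.32 ± 0.18 (SE), adjusted p = 6.75e-05), and Serpinb1a had a log2 fold change of -0.74 ± 0.23 (adjusted p = 0.0471), which most alternatives lost. Tnfaip2 was also higher in thymic fibroblasts, with 387 CPM in old and 315 CPM in young libraries, whereas Fabp5 and Serpinb1a were lower there. The part of fibroblasts in the rise of Tnfaip2 was not tested.

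Ciliated-type genes passed in 8 of 16 cases, with 3 lower and 1 higher, and only 1 was lower without young replicate 3 or 4. Dynlrb2, a dynein light chain, had 0.584, 1.20, 3.31, 0.403 and 0.634 CPM in the old libraries. Young libraries had 4.28, 16.9, 4.90, 9.76 and 6.94 CPM. Old values were mostly close to 0 and all below the young ones (log2 fold change -3.00 ± 0.55 (SE), adjusted p = 0.00128). Foxj1, the master regulator of motile cilia, had 16.4, 16.2, 16.5, 15.7 and 6.97 CPM in the old libraries. Young libraries had 1.43, 6.75, 0, 6.33 and 3.13 CPM, and the gene went the opposite way (log2 fold change 1.86 ± 0.50 (SE), adjusted p = 0.0218), with the call lost without old replicate 1 or 4 or young replicate 5 (adjusted p 0.0510 to 0.0667). Among neuroendocrine-type genes 3 of 15 passed the filter, and Scg5, a secretory granule chaperone, fell (log2 fold change -2.10 ± 0.48 (SE), adjusted p = 0.0078). Of 3 tissue-restricted antigens that passed, the casein gene Csn2 fell (log2 fold change -1.86 ± 0.55 (SE), adjusted p = 0.0386), a call lost without any single library other than old replicate 1 or young replicate 3. Muscle-type and gut or liver-type genes gave 1 call, Des, in 6 genes that passed.

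The largest changes over all genes included several that belong to none of these programs. Otog (chr7:46240987-46311434), which encodes otogelin, a glycoprotein of the membranes that cover inner ear sensory epithelia, had 110.4, 93.9, 48.96, 135 and 120.4 CPM in the old libraries. Young libraries had 0, 2.03, 2.64, 1.85 and 2.95 CPM. Every old library was far above every young one (log2 fold change 5.46 ± 0.32 (SE), adjusted p = 2.79e-08). Its mean over the 46 groups of the series was highest in old thymic epithelial cells, 100 CPM without TMM scaling, and the next group outside the thymic epithelium, old thymic fibroblasts, had 2.41 CPM. Ecel1 (chr1:87147655-87156521), a membrane metalloprotease known from the nervous system, had 103, 168, 145, 122 and 86.8 CPM in the old libraries. Young libraries had 4.28, 9.46, 7.55, 5.01 and 3.47 CPM. The groups were again far apart (log2 fold change 4.38 ± 0.27 (SE), adjusted p = 2.79e-08).

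Fgf7 (chr2:126034658-126091185), keratinocyte growth factor, is usually made by mesenchyme and acts on epithelium through a splice form of FGFR2. It had 128, 121, 99.9, 101 and 77.3 CPM in the old libraries. Young libraries had 2.85, 3.72, 5.28, 6.86 and 8.16 CPM. The lowest old library exceeded the highest young library by a wide margin (log2 fold change 4.13 ± 0.23 (SE), adjusted p = 2.79e-08). Dhrs9 (chr2:69380445-69404533), a retinol dehydrogenase whose promoter is shown above, had 85.3, 83.2, 72.1, 62.4 and 40.9 CPM in the old libraries. Young libraries had 4.28, 3.72, 6.41, 4.75 and 3.13 CPM (log2 fold change 3.96 ± 0.26 (SE), adjusted p = 6.4e-08). Cxcl13, the chemokine that attracts B cells, had 40.3, 203, 98.6, 251.7 and 200.2 CPM in the old libraries. Young libraries had 14.3, 16.5, 13.6, 10.3 and 7.12 CPM. Old replicate 1 was the lowest old value and still above all young ones (log2 fold change 3.75 ± 0.40 (SE), adjusted p = 8.2e-06). Within thymic fibroblasts Cxcl13 also rose (log2 fold change 1.44, adjusted p = 0.0446), with means of 418 CPM in old and 154 CPM in young libraries. The part of fibroblasts in the epithelial rise was not tested.

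The remaining genes with the highest fold changes averaged as follows (SD, n = 5 each, adjusted p at most 2.12e-05, no overlap). Ush1c, the scaffold protein harmonin of inner ear and gut epithelia, averaged 47.7 ± 13.03 CPM in old libraries and 2.98 ± 2.59 CPM in young libraries. The organic anion transporter gene Slco1a5 averaged 34.2 ± 8.49 CPM in old libraries and 2.27 ± 1.29 CPM in young libraries, and Grin2a, an NMDA receptor subunit, 73.03 ± 16.3 CPM in old libraries and 5.87 ± 3.32 CPM in young libraries. Cldn10, a claudin of ion-transporting epithelia, averaged 22.1 ± 8.24 CPM in old libraries and 2.06 ± 1.25 CPM in young libraries, and the membrane carbonic anhydrase Car12 106 ± 30.4 CPM in old libraries and 7.46 ± 3.39 CPM in young libraries. Ctxn3 averaged 23.4 ± 7.92 CPM in old libraries and 1.57 ± 1.28 CPM in young libraries, and Fbxo2, a ubiquitin ligase subunit that binds glycoproteins, 76.5 ± 12.7 CPM in old libraries and 6.44 ± 3.10 CPM in young libraries. Among the 10 lowest adjusted p-values were also those of Cd24a, a GPI-anchored surface protein (log2 fold change 2.32 ± 0.16 (SE), adjusted p = 6.88e-08), Fam107a, an actin-associated protein (log2 fold change 2.80 ± 0.19 (SE), adjusted p = 7.81e-08), Cyp2f2, a cytochrome P450 (log2 fold change 2.01 ± 0.14 (SE), adjusted p = 8.03e-08), and the mesenchymal homeobox gene Prrx1, taken up below.

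The lowest fold changes were led by Zfp385b, a zinc finger gene, with 3.50, 2.99, 3.31, 3.22 and 1.90 CPM in the old libraries. Young libraries had 117, 12.8, 37.7, 17.1 and 53.5 CPM. The young values varied widely and all lay above the old ones (log2 fold change -3.90 ± 0.56 (SE), adjusted p = 0.00014). Ackr4 (chr9:104084157-104126933), an atypical receptor that scavenges CCL19, CCL21 and CCL25, had 63.1, 73.6, 86.7, 61.2 and 52.6 CPM in the old libraries. Young libraries had 488, 318, 409, 485 and 428 CPM. This was the most abundant of the strongly lowered genes and the groups did not come near each other (log2 fold change -2.66 ± 0.16 (SE), adjusted p = 2.79e-08). Young thymic epithelial cells had the highest mean of Ackr4 of the 46 groups, 420.0 CPM without TMM scaling, and young keratinocytes the next, 380.3 CPM. Igfbp2, a binding protein of insulin-like growth factors, had 27.4, 16.8, 25.1, 17.3 and 40.6 CPM in the old libraries. Young libraries had 159.8, 132, 117, 157 and 128 CPM (log2 fold change -2.42 ± 0.21 (SE), adjusted p = 9.93e-07).

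Dlgap1, a scaffold protein of synapses, had 6.42, 4.19, 5.29, 6.04 and 2.85 CPM in the old libraries. Young libraries had 8.56, 6.75, 6.79, 77.04 and 63.7 CPM. Only young replicates 4 and 5 were high and the lowest young values were close to the old ones (log2 fold change -2.84 ± 0.66 (SE), adjusted p = 0.00839). Most of the others are given here, with separate groups with narrower young values (means ± SD, n = 5 each, adjusted p at most 9.55e-05). Vsig8, an immunoglobulin-domain protein, averaged 3.73 ± 1.10 CPM in old libraries and 23.3 ± 4.34 CPM in young libraries, and Tmeff2, a transmembrane protein, 3.39 ± 2.58 CPM in old libraries and 20.3 ± 2.21 CPM in young libraries. Kcnk2, a background potassium channel, averaged 9.12 ± 2.19 CPM in old libraries and 57.4 ± 21.8 CPM in young libraries, and Nkain4, which interacts with the sodium pump, 13.3 ± 4.12 CPM in old libraries and 70.2 ± 11.9 CPM in young libraries. The last 3 of the group, Cd3d, Prkcq and Camk4, are genes that T cells express, with 3.91 ± 1.82 CPM in old libraries and 21.4 ± 7.44 CPM in young libraries for the T cell receptor subunit Cd3d, 5.46 ± 3.16 CPM in old libraries and 29.4 ± 4.38 CPM in young libraries for the kinase gene Prkcq and 6.99 ± 1.68 CPM in old libraries and 37.2 ± 4.21 CPM in young libraries for the kinase gene Camk4.

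**Figure D2:**
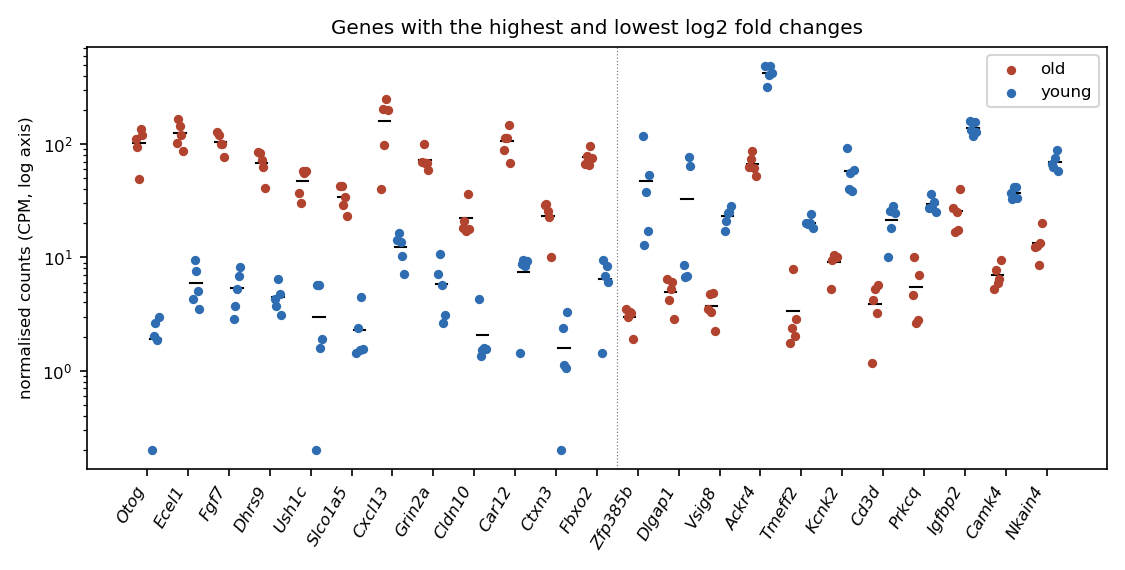
Normalised counts (CPM, log axis) of the 12 genes whose log2 fold change was highest (left of the dotted line) and 11 of the 12 where it was lowest, in 5 old (left of each pair) and 5 young (right) libraries; points are libraries, bars are means, and values below 0.2 CPM are drawn at 0.2. Groups do not overlap, by the rule that chose the genes, and the young values of Zfp385b and Dlgap1 are spread most widely.

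Signals to thymocytes other than the cortical ones were also read as a group. Of 16 measured Notch, cytokine and growth factor ligands 3 rose and 2 fell, the last being Kitl and Il7. Tgfb2 had 52.6, 68.2, 62.9, 78.1 and 102 CPM in the old libraries. Young libraries had 31.4, 17.2, 25.7, 17.7 and 18.9 CPM, with the highest young value below the lowest old one (log2 fold change 1.79 ± 0.21 (SE), adjusted p = 2.07e-05). Flt3l, the FLT3 ligand, rose by 0.72 ± 0.21 (adjusted p = 0.0351), with overlapping groups and a call lost without old replicate 2, 4 or 5 or any of young replicates 2 to 5. Bmp4 was the third that rose. Only 1 of the ligands rose without old replicate 2, 4 or 5 or young replicate 4 or 5. Of 19 measured chemokines 5 rose (Cxcl13, Ccl19, Cxcl9, Cxcl14 and Ccl2) and 3 fell (Ccl25, Cxcl12 and Ccl27a), with a median of 0.50, and without old replicate 3 or young replicate 5 the number that rose was 3. Cxcl9, an interferon-induced chemokine for activated T cells, had 68.3, 88.5, 92.6, 91.4 and 274 CPM in the old libraries. Young libraries had 42.8, 36.1, 23.01, 25.9 and 30.4 CPM. Old replicate 5 was far above the others, and all old values lay above the young ones (log2 fold change 2.02 ± 0.33 (SE), adjusted p = 0.000464). Cxcl9 also rose within thymic fibroblasts (log2 fold change 1.78, adjusted p = 0.000604), with means of 154 CPM in old and 45.4 CPM in young libraries.

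The RANK, CD40 and lymphotoxin pathway, which matures medullary cells through NF-kB, gave 1 call among 25 measured genes: the feedback inhibitor gene Tnfaip3 rose (log2 fold change 0.80 ± 0.19 (SE), adjusted p = 0.00908). The other 24 had log2 fold changes between -0.56 and 0.78. The FGF, BMP, Wnt and IGF genes gave 8 higher and 8 lower among 34. Besides the ligand Fgf7, the receptor gene Fgfr1 averaged 64.8 ± 10.6 CPM in old libraries and 26.2 ± 6.01 CPM in young libraries (log2 fold change 1.27 ± 0.18 (SE), adjusted p = 0.000134) and the secreted Wnt modulator gene Dkk3 129.6 ± 26.3 CPM in old libraries and 51.1 ± 6.23 CPM in young libraries (log2 fold change 1.32 ± 0.16 (SE), adjusted p = 2.59e-05; SD, n = 5 each). Fgfr1 was higher in thymic fibroblasts, which averaged 180 CPM in old and 212 CPM in young libraries. Their part in its rise was not tested. Fgfr2, named here after its values were seen because it encodes the FGF7 receptor, had 69.5, 90.9, 60.2, 76.1 and 60.5 CPM in the old libraries. Young libraries had 121, 101, 95.4, 85.7 and 100.2 CPM. The groups overlapped and the difference was small (log2 fold change -0.48 ± 0.15 (SE), adjusted p = 0.0463). The call was lost in several alternatives. The number that fell was 3 to 5 without old replicate 1, 2, 4 or 5 or young replicate 2 or 5.

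Genes of antigen presentation were called in both directions. Class II genes were higher in 0% and lower in 17.6% of measured cases, class I and proteasome genes in 13.8% and 3.45%. Over all genes tested 6.40% were higher and 5.00% lower. Of 17 measured MHC class II genes 0 rose and 3 fell, all parts of the H2-DM peptide editor: H2-DMb2, H2-DMb1 and H2-DMa had log2 fold changes of -0.54 ± 0.14, -0.49 ± 0.13 and -0.40 ± 0.12 (± SE; adjusted p = 0.0175, 0.0174 and 0.0328). H2-DMb1 and H2-DMb2 are close copies and can share reads, and only 1 of the 3 was called without old replicate 4. Of 29 class I and proteasome genes 4 rose and 1, Psmb11, fell, but only 2 rose without old replicate 1, 2 or 5 or young replicate 3 or 5, and 6 rose and 1 fell without young replicate 4. Without young replicate 5, 2 fell. Nlrc5, the class I transactivator, averaged 40.5 ± 6.23 CPM in old libraries and 18.3 ± 7.65 CPM in young libraries (log2 fold change 1.09 ± 0.23 (SE), adjusted p = 0.0046), and H2-Q7 rose by 0.63 ± 0.14 (adjusted p = 0.00512), though class I genes are near-identical and can share reads.

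Of 40 measured proliferation genes 4 fell and 0 rose, with a median of -0.26. Thymocyte markers fell in the same libraries, in 14 of 20 measured cases as given below, and their part in this result was not tested. The condensin gene Smc4, whose highest mean in the series was that of young naive CD4 T cells (2387 CPM without TMM scaling), averaged 219.7 ± 35.3 CPM in old libraries and 395 ± 48.4 CPM in young libraries (log2 fold change -0.85 ± 0.14 (SE), adjusted p = 0.000529), and Nusap1, a spindle protein, 11.6 ± 3.24 CPM in old libraries and 24.3 ± 6.21 CPM in young libraries (log2 fold change -0.99 ± 0.24 (SE), adjusted p = 0.0124; SD, n = 5 each). Rrm2, which supplies deoxynucleotides, fell (log2 fold change -1.35 ± 0.35 (SE), adjusted p = 0.0176) with overlapping groups. Mki67, named after its values were seen as the usual marker of cycling cells, did not pass (log2 fold change -0.19 ± 0.36 (SE), adjusted p = 0.813). Without old replicate 5, 7 of the list fell. Among 13 cell cycle inhibitors 3 rose: Gadd45b (log2 fold change 1.12 ± 0.24 (SE), adjusted p = 0.00511), Cdkn2c (0.71 ± 0.20, adjusted p = 0.0254) and Gadd45g (0.60 ± 0.18, adjusted p = 0.042), each with overlapping groups. Only 1 was called without old replicate 4 or young replicate 3. Gadd45b, Cdkn2c and Gadd45g also rose within thymic fibroblasts, by 1.37, 1.05 and 1.15 (adjusted p = 0.00452, 0.0377 and 0.00916). None of them had a called difference between the age changes of the epithelium and the fibroblasts. Cdkn2a did not pass the filter on low counts.

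Inflammatory and acute phase genes gave 9 higher and 5 lower of 35, with a median of 0.18. Mmp3, a matrix protease, averaged 127 ± 28.4 CPM in old libraries and 53.1 ± 3.96 CPM in young libraries (log2 fold change 1.24 ± 0.16 (SE), adjusted p = 4e-05) and Lcn2, an iron-sequestering acute phase protein, 103 ± 8.67 CPM in old libraries and 49.2 ± 18.7 CPM in young libraries (log2 fold change 1.13 ± 0.22 (SE), adjusted p = 0.00206; SD, n = 5 each). Mmp3 also rose within thymic fibroblasts (log2 fold change 0.83, adjusted p = 0.00992), with means of 869 CPM in old and 489 CPM in young libraries. The part of fibroblasts in its epithelial rise was not tested. The calprotectin genes S100a8 and S100a9, which are abundant in neutrophils, fell, with log2 fold changes of -1.64 ± 0.29 and -1.69 ± 0.27 (adjusted p = 0.00106 and 0.000336). The counts depended on single libraries: 3 rose without old replicate 3 or young replicate 5, 4 rose without young replicate 3, and between 2 and 3 fell without old replicate 1, 2, 3 or 4 or young replicate 2 or 4.

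Complement genes rose in 6 of 15 measured cases and fell in 0. C4b, a component of the classical pathway, had 59.6, 81.4, 82.04, 72.9 and 78.9 CPM in the old libraries. Young libraries had 12.8, 16.9, 19.995, 11.9 and 20.3 CPM. The old values were all far above the young ones (log2 fold change 2.15 ± 0.18 (SE), adjusted p = 6.87e-07); C4b and its paralog C4a are near-identical and can share reads. Serping1, which inhibits C1, averaged 414 ± 73.8 CPM in old libraries and 199 ± 11.9 CPM in young libraries (log2 fold change 1.06 ± 0.13 (SE), adjusted p = 4e-05), and C1s1 187 ± 21.1 CPM in old libraries and 88.7 ± 17.7 CPM in young libraries (log2 fold change 1.10 ± 0.15 (SE), adjusted p = 6.2e-05; SD, n = 5 each). Fibroblasts also make these 3 proteins, and fibroblast markers rose in the same libraries, as given below; their part in this result was not tested. Without old replicate 5, 4 complement genes fell.

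AP-1 and immediate-early genes, which respond to growth signals and also to tissue dissociation, rose in 8 of 21 measured cases and fell in 0, with a median of 0.60. Fos had 1716, 1524, 3029, 1907 and 2424 CPM in the old libraries. Young libraries had 1017, 1612, 1341, 1237 and 1375 CPM. Old replicate 3 was the highest and the groups overlapped (log2 fold change 0.69 ± 0.18 (SE), adjusted p = 0.0197). Klf6 averaged 1112 ± 347 CPM in old libraries and 567 ± 163 CPM in young libraries (log2 fold change 0.97 ± 0.21 (SE), adjusted p = 0.00565), Maff 48.5 ± 19.03 CPM in old libraries and 23.1 ± 5.78 CPM in young libraries (log2 fold change 1.06 ± 0.25 (SE), adjusted p = 0.00887) and Fosl2 91.3 ± 10.5 CPM in old libraries and 58.6 ± 12.7 CPM in young libraries (log2 fold change 0.66 ± 0.16 (SE), adjusted p = 0.0122; SD, n = 5 each). The count was 3 without old replicate 3, 5 without old replicate 4 and 14 without old replicate 2. Interferon-stimulated genes gave 3 higher (6%) and 5 lower (10%) of 50, beside 6.40% and 5.00% over all genes tested. Ifi44 fell (log2 fold change -0.75 ± 0.12 (SE), adjusted p = 0.000344), as did Ifit3b (log2 fold change -0.85 ± 0.17 (SE), adjusted p = 0.00248), while Stat2 rose (log2 fold change 0.63 ± 0.12 (SE), adjusted p = 0.00217). Only 3 of this list fell without old replicate 1 or 2 or young replicate 4.

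Heat shock and unfolded protein genes gave 3 higher (10.3%) and 1 lower (3.45%) of 29, beside 6.40% and 5.00% over all genes tested. Asns, the asparagine synthetase that amino acid stress induces, fell (log2 fold change -0.83 ± 0.17 (SE), adjusted p = 0.00435). Hspb1, Hsp90b1 and Hspa1b rose by 0.73 ± 0.19, 0.43 ± 0.12 and 0.52 ± 0.16 (adjusted p = 0.018, 0.0298 and 0.0373), and none of the 3 was called without old replicate 3, old replicate 4 or young replicate 5. Antioxidant genes gave 7 higher and 2 lower of 31, and 1 lower without any single library other than old replicate 5 or young replicate 5. Gclc, the rate-limiting enzyme of glutathione synthesis, had 336, 305, 180.0, 239 and 228 CPM in the old libraries. Young libraries had 64.2, 63.8, 59.99, 50.7 and 60.9 CPM, with separate groups (log2 fold change 2.11 ± 0.17 (SE), adjusted p = 3.59e-07). Nqo1, a quinone reductase, had 29.2, 34.1, 27.8, 34.6 and 27.2 CPM in the old libraries. Young libraries had 131, 68.9, 100.4, 109 and 103 CPM, and the gene moved the opposite way (log2 fold change -1.73 ± 0.17 (SE), adjusted p = 3.9e-06). Gstm1, a glutathione transferase, averaged 623 ± 79.3 CPM in old libraries and 239 ± 19.9 CPM in young libraries (log2 fold change 1.38 ± 0.13 (SE), adjusted p = 1.48e-06) and the metallothionein gene Mt2 453 ± 47.3 CPM in old libraries and 193 ± 27.1 CPM in young libraries (log2 fold change 1.23 ± 0.13 (SE), adjusted p = 9.57e-06; SD, n = 5 each). Gstm1 was higher in thymic fibroblasts, which averaged 732 CPM in old and 546 CPM in young libraries. Their part in its rise was not tested.

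**Figure D3:**
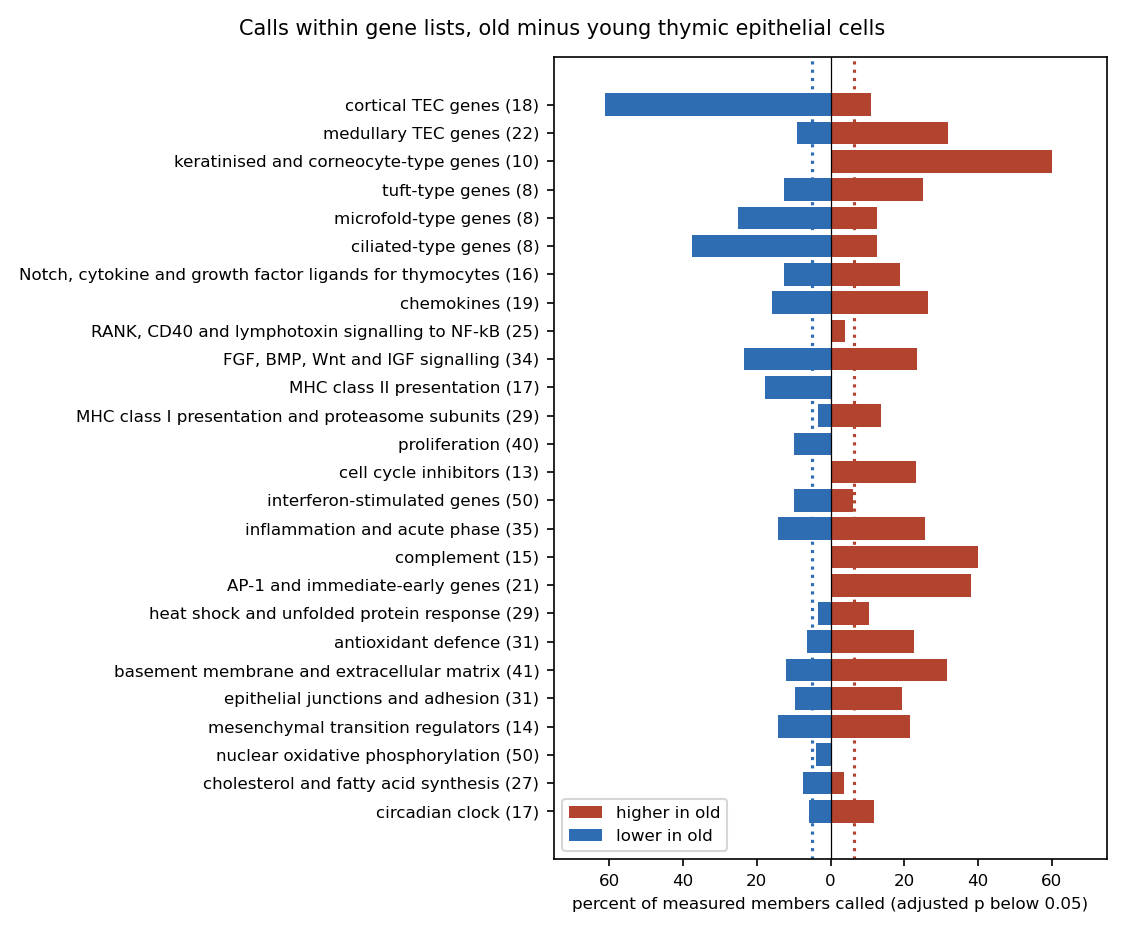
Percent of the measured members of each gene list other than the markers of other cell types (number measured in parentheses, lists with at least 8) that were higher (red, to the right) or lower (blue, to the left) in old thymic epithelial cells at an adjusted p below 0.05. Dotted lines mark the shares over all genes tested, 6.40% higher and 5.00% lower; among the lists drawn, the cortical list has the longest bar to the left and the keratinised list the longest to the right.

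Matrix genes gave 13 higher and 5 lower of 41 measured. Tnc, tenascin C, had 74.2, 97.5, 52.3, 77.7 and 69.4 CPM in the old libraries. Young libraries had 225, 305, 288, 279 and 303 CPM. No old library came near the lowest young one (log2 fold change -1.92 ± 0.16 (SE), adjusted p = 4.91e-07). Lama1, a laminin chain of basement membranes, had 31.5, 21.5, 19.2, 23.4 and 8.55 CPM in the old libraries. Young libraries had 4.28, 1.35, 4.53, 1.06 and 1.22 CPM (log2 fold change 3.30 ± 0.45 (SE), adjusted p = 8.58e-05), and Col17a1, which anchors basal epithelial cells to the basement membrane, averaged 133 ± 19.6 CPM in old libraries and 33.3 ± 11.7 CPM in young libraries (log2 fold change 1.95 ± 0.20 (SE), adjusted p = 4.92e-06; SD, n = 5 each). The fibrillar collagen gene Col1a2 averaged 421 ± 64.8 CPM in old libraries and 224 ± 8.00 CPM in young libraries (log2 fold change 0.91 ± 0.13 (SE), adjusted p = 9.97e-05). The number that fell was 3 without old replicate 4 or young replicate 3. Junction and adhesion genes gave 6 higher and 3 lower of 31. Besides Cldn3, Cldn4 and Dsg3 given above, Ocln, occludin of tight junctions, averaged 21.3 ± 4.64 CPM in old libraries and 4.67 ± 2.08 CPM in young libraries (log2 fold change 2.31 ± 0.32 (SE), adjusted p = 0.000112; SD, n = 5 each). Among 14 regulators and markers of mesenchymal transition 3 rose, Prrx1, Zeb2 (log2 fold change 1.15 ± 0.22 (SE), adjusted p = 0.00161) and Tgfb2, and 2 fell, among them Fn1, fibronectin (log2 fold change -1.05 ± 0.20 (SE), adjusted p = 0.00184). Only 1 fell without old replicate 2 or 4 or young replicate 5. Of the matrix and transition genes named here that rose, Col1a2, Prrx1 and Zeb2 were higher in thymic fibroblasts at both ages. Lama1 and Col17a1 were not. Tgfb2 was higher in fibroblasts in young libraries, where it averaged 120 CPM beside 20.5 CPM in the epithelium. In old libraries it averaged 66.0 CPM in fibroblasts and 68.0 CPM in the epithelium. Zeb2 averaged 204 CPM in old and 243 CPM in young fibroblasts. Fibroblast markers rose in the same epithelial libraries, as given below, and their part in these results was not tested.

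Genes of fibroblasts, the other main stromal cells of the thymus, mostly rose in the old epithelial libraries. All 17 fibroblast markers passed the filter, 12 rose and 0 fell, and the median log2 fold change was 0.79. Their summed level ran from 7475 to 11965 CPM in old libraries, against 5454 to 6674 CPM in young libraries, and none was at 0 in either age. Dcn, decorin, the highest of them, had 5812, 5591, 5651, 4992 and 3485 CPM in the old libraries. Young libraries had 2211, 2788, 3144, 3172 and 3277 CPM (log2 fold change 0.81 ± 0.16 (SE), adjusted p = 0.00304). Pdgfra, the receptor that defines thymic mesenchyme, had 64.2, 53.2, 77.4, 56.4 and 40.2 CPM in the old libraries. Young libraries had 14.3, 23.3, 24.9, 23.7 and 18.8 CPM, with separate groups (log2 fold change 1.42 ± 0.20 (SE), adjusted p = 9.61e-05). Col14a1 and Col3a1 rose by 0.99 ± 0.15 and 0.76 ± 0.13 (adjusted p = 0.000303 and 0.000956). Prrx1 (chr1:163245119-163313710), a homeobox gene of connective tissue, had 212, 209, 161, 162 and 146 CPM in the old libraries. Young libraries had 22.8, 33.4, 26.4, 28.5 and 23.8 CPM. Its adjusted p was among the lowest of the whole comparison (log2 fold change 2.70 ± 0.16 (SE), adjusted p = 2.79e-08).

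The levels in sorted thymic fibroblasts give a scale for these values. Expressed as a percent of the mean level in thymic fibroblasts of the same age, the 17 markers had a median of 13.4% in old epithelial libraries (5.61% to 50%) and 4.07% in young epithelial libraries (2.87% to 48.7%). Prrx1 stood at 35.7% in old and 5.11% in young libraries. Fgf7 stood at 161% in old and 8.19% in young libraries, with a mean of 98.6 CPM in old thymic epithelial cells beside 61.4 CPM in old thymic fibroblasts. When the 2 age changes were tested against each other, 13 of the 17 markers were called as more positive in epithelial cells and 0 as more negative. Over all genes in that test 2.77% were called as more positive and 1.83% as more negative. This percentage also depends on the fibroblasts' own change: Col3a1 averaged 2299 CPM in old and 5596 CPM in young fibroblasts. Whether fibroblast RNA or cells contributed to the epithelial libraries was not tested.

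**Figure D4:**
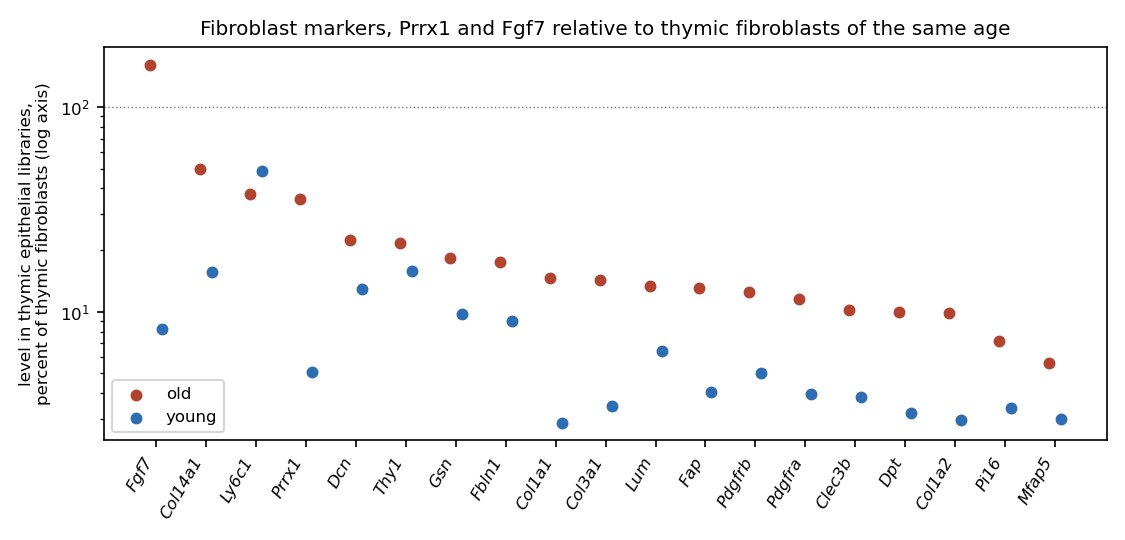
Mean level of 17 fibroblast markers, Prrx1 and Fgf7 in old (red, left) and young (blue, right) thymic epithelial libraries, as a percent of the mean level in thymic fibroblasts of the same age (log axis; no error is drawn since each point is a ratio of 2 means). Fgf7 in old epithelial libraries, at 161%, is the only point above the dotted line at 100%, and Ly6c1 is the only gene with a higher value in young libraries.

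Markers of other cells were read in the same way. T cell and thymocyte markers fell in 14 of 20 measured cases and rose in 0, with a median of -1.45 and a summed level of 194 to 315 CPM in old libraries, against 436 to 602 CPM in young libraries. Cd8b1, a co-receptor chain of double-positive thymocytes, had 7.59, 8.97, 3.97, 5.64 and 8.24 CPM in the old libraries. Young libraries had 29.95, 34.4, 35.1, 27.2 and 35.9 CPM (log2 fold change -2.23 ± 0.23 (SE), adjusted p = 5.14e-06). Cd3d, a chain of the T cell receptor complex, had 1.17, 4.19, 5.29, 3.22 and 5.70 CPM in the old libraries. Young libraries had 9.98, 25.7, 18.1, 28.5 and 24.8 CPM (log2 fold change -2.47 ± 0.34 (SE), adjusted p = 9.55e-05). The kinase gene Lck and the receptor subunit gene Cd3g also fell, with log2 fold changes of -1.47 ± 0.25 and -1.75 ± 0.30 (adjusted p = 0.000625 and 0.00075). Neutrophil markers fell in 4 of 7 cases, with a summed level of 106 to 378 CPM in old and 423 to 889 CPM in young libraries; Camp, the granule peptide cathelicidin, averaged 26.4 ± 13.00 CPM in old libraries and 94.7 ± 18.2 CPM in young libraries (log2 fold change -1.84 ± 0.25 (SE), adjusted p = 7.63e-05; SD, n = 5 each).

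B cell markers gave 3 higher and 1 lower of 6, or 1 higher without old replicate 4 or 5 or young replicate 2, 3 or 5, and 0 lower without old replicate 2 or 4, with summed levels of 128 to 367 CPM in old and 92.4 to 125 CPM in young libraries. Ms4a1, which encodes CD20, had 3.50, 0, 10.6, 37.9 and 58.6 CPM in the old libraries. Young libraries had 1.43, 4.39, 5.66, 6.86 and 2.78 CPM. It was high only in old replicates 4 and 5 and the groups overlapped (log2 fold change 2.35 ± 0.73 (SE), adjusted p = 0.0455). The call was lost without either of them or without any young library. The plasma cell list gave 1 call of 8, Txndc5 (log2 fold change 0.81 ± 0.18 (SE), adjusted p = 0.00549), a chaperone that other secretory cells also make, and 2 and 3 calls without old replicates 1 and 2. Immunoglobulin genes took 0.0639% to 1.51% of counts in old and 0.0853% to 0.161% in young libraries, and old replicate 5 was the highest.

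Endothelial markers gave 0 calls of 16, and 6 fell when old replicate 5 was left out. Pecam1, a junction protein of endothelium, had 18.1, 20.3, 10.6, 40.3 and 188 CPM in the old libraries. Young libraries had 119.8, 106, 25.7, 96.03 and 73.8 CPM, and old replicate 5 was the highest library (log2 fold change -0.51 ± 0.57 (SE), adjusted p = 0.656). Macrophage markers gave 1 lower of 16, the lysozyme gene Lyz2 (log2 fold change -1.20 ± 0.36 (SE), adjusted p = 0.0409), and 7 fell without old replicate 5. The Lyz2 call was lost with DESeq2 (adjusted p = 0.102) and without old replicate 1, 2, 3 or 4 or young replicate 1, 4 or 5 (0.0552 to 0.140). Ptprc, which encodes the pan-leukocyte antigen CD45, did not pass (log2 fold change -0.36 ± 0.41 (SE), adjusted p = 0.656). Pericyte and smooth muscle markers went both ways, with Des (1.38 ± 0.24) and the channel subunit Abcc9 (1.03 ± 0.23) higher and Myh11 (-1.19 ± 0.23) and Tagln (-1.03 ± 0.20) lower (adjusted p = 0.000992, 0.00561, 0.00204 and 0.00263). The mesothelial marker Msln, which some epithelia also express, had 53.7, 61.6, 104, 122 and 112 CPM in the old libraries. Young libraries had 17.1, 27.4, 18.1, 19.5 and 9.72 CPM (log2 fold change 2.32 ± 0.28 (SE), adjusted p = 2.35e-05). Krt19 of the same list fell (log2 fold change -1.11 ± 0.21 (SE), adjusted p = 0.00194). Of 4 adipocyte genes Car3 (log2 fold change 2.78 ± 0.41 (SE), adjusted p = 0.000175) and Lpl (log2 fold change 0.76 ± 0.19 (SE), adjusted p = 0.0139) rose. The other adipocyte genes were not called, the median was 0.04, and up to 2 fell without 1 library. Summed adipocyte markers ran from 490 to 3097 CPM in old and from 496 to 2644 CPM in young libraries. Their medians were 727 and 1921 CPM, and old replicate 5 was the highest. Lpl was higher in thymic fibroblasts, which averaged 757 CPM in old and 910 CPM in young libraries. Of 2 parathyroid-list genes the vitamin D receptor gene Vdr, also active in keratinocytes, rose (log2 fold change 1.91 ± 0.23 (SE), adjusted p = 3.06e-05). Dendritic cell and erythroid markers gave 0 calls of 2 and of 5.

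Genes of energy metabolism were read beside the shares over all genes tested, 6.40% higher and 5.00% lower. Oxidative phosphorylation genes were higher in 0% and lower in 4% of measured cases, and 6 of the 50 had a positive log2 fold change. Lipid synthesis genes were higher in 3.70% and lower in 7.41%, and clock genes in 11.8% and 5.88%. Of 50 measured nuclear genes of oxidative phosphorylation 0 rose and 2 fell, the complex I subunit gene Ndufa8 (log2 fold change -0.75 ± 0.13 (SE), adjusted p = 0.000641) and, by less, the ATP synthase gene Atp5c1 (-0.37 ± 0.11, adjusted p = 0.0407), with a median of -0.17. The Atp5c1 call was lost without old replicate 1, 2, 4 or 5 or young replicate 3, 4 or 5 (adjusted p 0.0596 to 0.0964). Of 27 lipid synthesis genes the squalene epoxidase gene Sqle (log2 fold change -1.12 ± 0.21 (SE), adjusted p = 0.00134) and the sterol desaturase gene Sc5d (-0.52 ± 0.14, adjusted p = 0.0182) fell and the fatty acid desaturase gene Scd1 (log2 fold change 1.01 ± 0.23 (SE), adjusted p = 0.00683) rose. Among 17 clock genes the repressor gene Bhlhe40 (log2 fold change 0.99 ± 0.18 (SE), adjusted p = 0.00138) and the output factor gene Hlf (log2 fold change 1.89 ± 0.40 (SE), adjusted p = 0.00433) rose and Cry2 fell (log2 fold change -0.75 ± 0.22 (SE), adjusted p = 0.0326), a call lost without old replicate 1, 2, 3 or 5 or young replicate 2, 3 or 5 (adjusted p 0.0547 to 0.0771). The sources used here do not state the time of day of collection.

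The next question was where the age change of the thymic epithelium differed from that of thymic fibroblasts. The difference of the 2 age changes was tested in a joint fit of 18 libraries, and levels in this paragraph are scaled over these. It was called at 679 of 14781 genes (4.59%), more positive in the epithelium at 409 (2.77%) and more negative at 270 (1.83%). Within fibroblasts alone 235 of 12239 genes changed with age. Of the 1531 genes that changed in the epithelium 493 had a called difference.

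Otog had 95.2 ± 30.97 CPM in old and 1.76 ± 1.07 CPM in young thymic epithelial libraries. Thymic fibroblasts had 2.66 ± 0.792 CPM in old and 2.27 ± 0.581 CPM in young libraries (SD, n = 5 each and n = 4 each). It was low in fibroblasts at both ages (difference 5.25 ± 0.62 (SE), adjusted p = 1.07e-05). Fgf7 had 98.6 ± 18.8 CPM in old and 5.00 ± 2.07 CPM in young thymic epithelial libraries. Thymic fibroblasts had 61.4 ± 16.8 CPM in old and 61.02 ± 19.3 CPM in young libraries. The 2 fibroblast means differed by less than their spread and the epithelial means by far more (difference 4.13 ± 0.35 (SE), adjusted p = 1.38e-07). Cldn3, Ush1c and Car3 had differences of 4.73 ± 0.63 (SE), adjusted p = 4.39e-05, of 4.26 ± 0.74 (SE), adjusted p = 0.000789 and of 3.94 ± 0.69 (SE), adjusted p = 0.000856. Ctxn3 was near 0 in fibroblasts and its difference (4.33 ± 1.13 (SE), adjusted p = 0.0245) was lost in some fits without 1 library. Prrx1, a marker of mesenchyme, had 166 ± 28.8 CPM in old and 25.05 ± 3.96 CPM in young thymic epithelial libraries. Thymic fibroblasts had 466 ± 77.1 CPM in old and 491 ± 107 CPM in young libraries (difference 2.78 ± 0.24 (SE), adjusted p = 1.38e-07).

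In the other direction, Ackr4 had 62.99 ± 11.8 CPM in old and 395 ± 64.1 CPM in young thymic epithelial libraries. Thymic fibroblasts had 26.03 ± 1.95 CPM in old and 29.4 ± 7.53 CPM in young libraries (difference -2.46 ± 0.26 (SE), adjusted p = 4.62e-06). Tnc had 69.4 ± 15.3 CPM in old and 260.0 ± 31.5 CPM in young thymic epithelial libraries. Thymic fibroblasts had 89.04 ± 23.4 CPM in old and 62.8 ± 23.8 CPM in young libraries (difference -2.42 ± 0.31 (SE), adjusted p = 3.67e-05). Within fibroblasts alone neither gene passed (adjusted p = 0.857 for Ackr4 and 0.466 for Tnc). Dlgap1 had a difference of -3.78 ± 0.99 (SE), adjusted p = 0.0252, lost in some fits without 1 library. Grem1, a BMP antagonist, was low in the epithelium at both ages and higher in old fibroblasts. It had 2.19 ± 1.56 CPM in old and 2.46 ± 0.678 CPM in young thymic epithelial libraries. Thymic fibroblasts had 23.8 ± 7.96 CPM in old and 2.83 ± 1.71 CPM in young libraries (difference -3.20 ± 0.69 (SE), adjusted p = 0.00556). The globin gene Hbb-bs, a marker of erythroid cells, had 164 ± 132 CPM in old and 108 ± 50.7 CPM in young thymic epithelial libraries. Thymic fibroblasts had 168 ± 81.2 CPM in old and 14.7 ± 12.5 CPM in young libraries, so young fibroblasts alone were low (difference -3.06 ± 0.79 (SE), adjusted p = 0.0231, lost in some fits without 1 library), and Hba-a1 and Hba-a2, near-identical copies that can share reads, had differences of -3.44 and -4.50.

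Among 19 cortical genes the difference was called as more negative in the epithelium for 6 and as more positive for 0. The 6 were Ctsl, Ly75, Tbata, Cxcl12, Kitl and Il7. Cxcl12 had 236 ± 87.8 CPM in old and 536 ± 11.1 CPM in young thymic epithelial libraries. Thymic fibroblasts had 409 ± 61.9 CPM in old and 297 ± 25.9 CPM in young libraries (difference -1.64 ± 0.26 (SE), adjusted p = 0.000354). Kitl had 62.4 ± 31.2 CPM in old and 145 ± 24.8 CPM in young thymic epithelial libraries. Thymic fibroblasts had 119 ± 17.05 CPM in old and 106 ± 10.02 CPM in young libraries (difference -1.35 ± 0.31 (SE), adjusted p = 0.0105). Foxn1, Psmb11, Prss16 and Ccl25 were not called in this test. They were also counted in the fibroblast libraries. Ccl25 averaged 47.9 CPM in old and 122 CPM in young fibroblasts (adjusted p = 0.00378 within fibroblasts), and Psmb11 averaged 4.66 CPM in old and 10.5 CPM in young fibroblasts (adjusted p = 0.175). Of 41 matrix genes 14 were called as more positive in the epithelium and 1, Tnc, as more negative. Col1a2 had 394 ± 57.4 CPM in old and 208 ± 5.61 CPM in young thymic epithelial libraries. Thymic fibroblasts had 4008 ± 1130.0 CPM in old and 7029.6 ± 1941 CPM in young libraries (difference 1.73 ± 0.26 (SE), adjusted p = 0.000155), so the means differed in opposite directions, although within fibroblasts alone the change did not pass (adjusted p = 0.0976). Col3a1 and Pdgfra had differences of 2.05 ± 0.27 (SE), adjusted p = 4.04e-05 and of 1.48 ± 0.23 (SE), adjusted p = 0.000331.

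**Figure D5:**
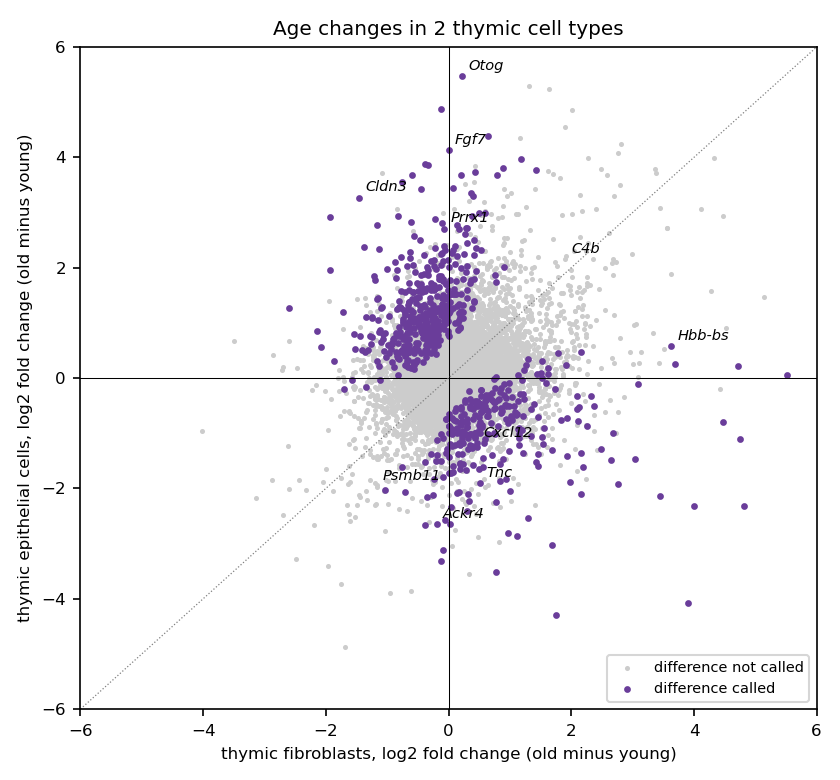
Log2 fold change with age (old minus young) of each gene in thymic epithelial cells (vertical) against thymic fibroblasts (horizontal) in the joint fit; purple points are the 679 genes with a called difference, the dotted line marks equal changes, and 2 genes lie outside the axes. Otog, Fgf7 and Prrx1 lie high near 0 on the horizontal axis, and Ackr4 and Tnc lie low.

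Against skin keratinocytes, the other keratin-rich stratified epithelium, the difference was called at 568 of 15603 genes (3.64%), more positive in the thymic epithelium at 324 (2.08%) and more negative at 244 (1.56%). Levels here are scaled over the 17 libraries of that fit, and the epithelial libraries are the same as in the comparison with fibroblasts, so the 2 tests share them. Within keratinocytes alone 62 of 12367 genes changed with age. Of the 1531 genes that changed in the thymic epithelium 433 had a called difference.

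Fgf7 had 101 ± 18.5 CPM in old and 5.17 ± 2.19 CPM in young thymic epithelial libraries. Keratinocytes had 2.44 ± 0.794 CPM in old and 2.54 ± 0.772 CPM in young libraries (difference 4.15 ± 0.51 (SE), adjusted p = 3.35e-05; SD, n = 5 each, and n = 3 and 4). Irx2, an Iroquois homeobox gene, had 6.36 ± 2.30 CPM in old and 0.407 ± 0.440 CPM in young thymic epithelial libraries. Keratinocytes had 51.1 ± 4.46 CPM in old and 61.4 ± 18.3 CPM in young libraries (difference 4.04 ± 0.57 (SE), adjusted p = 0.00012), a lift from near 0 in the thymic epithelium while the skin means differed by less than their spread. Otoa, otoancorin of the inner ear, had 20.8 ± 6.71 CPM in old and 2.31 ± 1.09 CPM in young thymic epithelial libraries. Keratinocytes had 0.127 ± 0.221 CPM in old and 1.31 ± 1.02 CPM in young libraries (difference 6.13 ± 1.04 (SE), adjusted p = 0.000848). Otoa was near 0 in keratinocytes, so its difference rests in part on few counts. Its fitted age change was 3.11 in the thymic epithelium and -3.03 in keratinocytes. Lin7a, Abca8a and Stc1 were also at or near 0 in keratinocytes, where their fitted changes rest on few counts. Their thymic epithelial means were 22.9 CPM in old and 6.47 CPM in young libraries for the polarity gene Lin7a, 53.8 and 23.4 CPM for the transporter gene Abca8a and 39.8 and 5.66 CPM for the secreted hormone gene Stc1.

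Vsig8 had 3.57 ± 1.03 CPM in old and 22.3 ± 4.58 CPM in young thymic epithelial libraries. Keratinocytes had 1.95 ± 0.862 CPM in old and 0.386 ± 0.522 CPM in young libraries (difference -4.73 ± 0.76 (SE), adjusted p = 0.000495). The fitted age change of Vsig8 was -2.68 in the thymic epithelium and 2.05 in keratinocytes, the latter from few counts. S100a9 had 30.5 ± 13.7 CPM in old and 98.5 ± 18.7 CPM in young thymic epithelial libraries. Keratinocytes had 1.26 ± 0.760 CPM in old and 0.0921 ± 0.184 CPM in young libraries (difference -4.77 ± 1.20 (SE), adjusted p = 0.0246), and keratinocytes held almost none. Slurp2, a secreted protein of skin, and Cstdc5 were low in the thymic epithelium (at most 0.581 and 2.29 CPM on average) and averaged 20.7 and 27.8 CPM in old keratinocytes, beside 0 and 3.43 CPM in young keratinocytes. Popdc3 averaged 34.7 CPM in old and 32.4 CPM in young keratinocytes and was at or near 0 in the thymic epithelium. Trim30a had 279 ± 159 CPM in old and 318 ± 101 CPM in young thymic epithelial libraries. Keratinocytes had 69.1 ± 114 CPM in old and 0.751 ± 0.147 CPM in young libraries, with a spread among old keratinocytes larger than their mean. The differences of Lin7a, Abca8a, Stc1, Trim30a, Cstdc5, S100a9 and Popdc3 each lost their call when 1 library was left out.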

How the data were processed

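Gene expression was measured in sorted cells of pooled mice by RNA-seq biased to transcript 3' ends, with unique molecular identifiers, per the labels' protocols. Reads were assigned to samples with sabre 80faf94, per the labels' protocols, and STAR and featureCounts 2.0.1 are listed in the submitters' processing notes, beside mm10 and GRCm38.p6 as builds. The sources used here do not say whether identifiers were used to collapse copies or strand to assign reads, so reads of overlapping or antisense genes cannot be told apart. The values are raw counts per gene as the authors deposited them, for 55484 genes in 170 libraries, and 0 columns could not be mapped. The 37 mitochondrial genes had 0 counts. No pair of replicates was identical (0 of 20), and Spearman correlations between replicates ran from 0.908 to 0.956.

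Old and young were compared with edgeR 4.0.16 (R 4.3.3, glmQLFit and glmQLFTest, TMM scaling) on genes that filterByExpr kept (count of 10 or more, total of 15 or more), at a Benjamini-Hochberg adjusted p of 0.05. Differences between age changes were interaction terms in joint fits with the other cell type. On simulated counts with 200 changed genes among 13143, the old against young test recovered 63.2% of 2-fold and 96.9% of 4-fold changes with 6.71% false calls, the fibroblast interaction (14468 genes) 18.2% and 75.5%, and the keratinocyte interaction (15224 genes) 17% and 56.6%. Alternatives were RLE size factors, other filters, DESeq2 1.42.0, a replicate block, a spread shared with thymic fibroblasts, and each library left out.

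The comparison, the 44 gene lists and the rules for names were chosen with earlier results of these data known. Named genes were the 12 highest and 12 lowest log2 fold changes among called genes with a mean of 20 CPM or more in the higher age and separate groups, the 10 lowest adjusted p-values, all cortical and medullary list members, up to 4 called members of other lists, and 6 per direction in each interaction; genes outside these rules are said to be named after their values were seen, and Dcn, Pecam1, Ptprc and Ddx3y were also. Some genes that meet these rules are not reported here. Sex-linked genes (other than as a check), unnamed models, pseudogenes, antisense genes and receptor segments were left out. Coordinates are from GENCODE M21 (GRCm38). Reads shared between near-identical genes make their values uncertain.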

Additional observations from a re-analysis of the deposited data

Results flagged for a closer look

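A library was set apart where its gap to the nearest of the 5 of its age exceeded 0.71 of their range (Dixon's test), which chance gives in about 1 in 20 groups; it held in 27 of the 344 groups checked for the named genes. The values are given without explanation. Old replicate 1 was above the others for Csn2 (14.0 CPM, next 3.49) and below the others for Krtdap (305 CPM, next 441) and Kcnk2 (5.26 CPM, next 9.57). Old replicate 2 was above the others for Ccl21a (326 CPM, next 59.0), Grin2a (101 CPM, next 69.5) and Ifit3b (85.6 CPM, next 65.4). Old replicate 3 was above the others for Dynlrb2 (3.31 CPM, next 1.20), Tmeff2 (7.94 CPM, next 2.85) and Serping1 (539 CPM, next 408). Old replicate 4 was above the others for Cldn10 (36.6 CPM, next 20.9) and Cry2 (29.0 CPM, next 19.6). Old replicate 5 was above the others for Kitl (123 CPM, next 63.6), Dll4 (10.5 CPM, next 3.62), Cxcl9 (274 CPM, next 92.6) and Pecam1 (188 CPM, next 40.3) and below the others for Foxj1 (6.97 CPM, next 15.7). Young replicate 1 was above the others for Ccl21a (377 CPM, next 29.4), Epcam (740.3 CPM, next 532), Cldn10 (4.28 CPM, next 1.58), Ifit3b (174 CPM, next 117), C1s1 (119.8 CPM, next 85.8) and Ddx3y (25.7 CPM, next 0.755) and below the others for Prss16 (133 CPM, next 176), Calml3 (1.43 CPM, next 7.55) and Car12 (1.43 CPM, next 8.44). Young replicate 3 was above the others for Foxn1 (87.9 CPM, next 65.2). Young replicate 5 was below the others for Krt17 (503 CPM, next 745). 
The log2 age change of thymic epithelial cells exceeded that of thymic fibroblasts by the interaction test for Otog (5.25), Cldn3 (4.73), Ctxn3 (4.33), Ush1c (4.26), Fgf7 (4.13), Car3 (3.94), Prrx1 (2.78), Pdgfra (1.48), Col1a2 (1.73) and Col3a1 (2.05), and was below it for Hba-a2 (-4.50), Dlgap1 (-3.78), Hba-a1 (-3.44), Grem1 (-3.20), Hbb-bs (-3.06), Ackr4 (-2.46), Tnc (-2.42), Cxcl12 (-1.64) and Kitl (-1.35). It exceeded that of keratinocytes by the interaction test for Lin7a (6.24), Otoa (6.13), Abca8a (5.04), Stc1 (4.95), Fgf7 (4.15) and Irx2 (4.04), and was below it for Slurp2 (-11.04), Trim30a (-6.60), Cstdc5 (-5.14), S100a9 (-4.77), Vsig8 (-4.73) and Popdc3 (-4.29). The value of Slurp2 is a fitted ratio over 0 counts in young keratinocytes, beside means of at most 0.581 CPM in the thymic epithelium, and is not a measured size.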

How the results depend on the processing

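Of the 152 named genes called in old against young thymic epithelial cells, 120 kept their call and sign in all alternatives that tested them, 32 lost the call in at least 1, and 0 reversed. The minimum count of 30 left 9713 genes tested, against 13428, so low genes were not tested there. Many of the named genes were picked for low adjusted p-values or separate groups, so they do not stand for all 1531 calls. The total of 1531 calls stayed within a factor of 1.5 under each alternative: 1513 with RLE size factors, 1926 with no filter, 1840 with DESeq2, 1257 with a minimum count of 30, 1539 with a spread shared with thymic fibroblasts, and 1220 to 1497 with 1 library left out. With the fibroblast comparison, leaving out 1 library gave 507 to 685 calls.

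The comparison with keratinocytes depended more on the settings. Its 568 calls became 388 to 622 with 1 library left out (211 to 349 higher, 176 to 273 lower); the higher calls were 211 without old keratinocyte replicate 2 and 212 without replicate 3, against 324. DESeq2 called 370 lower, against 244. The cause was not tested.

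Replicate numbers appear in both ages, but same-numbered libraries did not deviate together (correlations -0.107 to 0.137, with 1 of 5 old libraries closest to its own number). They were not paired in the main test. These correlations cannot show whether same-numbered libraries were prepared together. With a replicate block the calls were 1260 for old against young, 477 against fibroblasts, and 362 (140 lower) against keratinocytes. Depth limits low genes such as Aire and Dll4, which did not pass the filter.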

Other observations

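Gene families outside the lists were looked at after the results were seen and are given as a description. Over all genes tested 6.40% were higher and 5.00% lower. Of 12 measured keratins 5 rose (Krt75, Krt15, Krt23, Krt5 and Krt14) and 3 fell (Krt36, Krt7 and Krt19). The Krt23 call was lost without any single library other than old replicate 2 or young replicate 2 (adjusted p 0.0581 to 0.133) and that of Krt36 without old replicate 2 or 5 or young replicate 2, 4 or 5 (0.0502 to 0.0588). Krt7, a keratin of simple epithelia, had 113, 174, 193, 172 and 211 CPM in the old libraries. Young libraries had 424, 373, 435, 439 and 355 CPM (log2 fold change -1.23 ± 0.15 (SE), adjusted p = 3.81e-05). Krt75, known from hair follicles, averaged 14.1 ± 5.66 CPM in old libraries and 1.78 ± 1.43 CPM in young libraries (log2 fold change 3.03 ± 0.47 (SE), adjusted p = 0.000332; SD, n = 5 each). Of 11 claudins 6 rose and 1, Cldn8, fell, with a median log2 fold change of 1.17. The Cldn8 call was lost without old replicate 2 or young replicate 3, 4 or 5 (0.0507 to 0.0540). That of Cldn7, which rose, was lost without old replicate 3, 4 or 5 or young replicate 1, 3, 4 or 5 (0.0539 to 0.116). Cldn9 had 65.4, 66.4, 59.5, 87.4 and 51.3 CPM in the old libraries. Young libraries had 5.71, 18.6, 17.7, 11.6 and 8.16 CPM, with separate groups (log2 fold change 2.36 ± 0.25 (SE), adjusted p = 7.06e-06). Its mean was highest in old and next highest in young thymic epithelial cells among the 46 groups of the series, and no other group exceeded 2.78 CPM.

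Of 201 solute carrier genes 20 rose and 11 fell. The lowest fold change of these was that of Slc46a2, a thymic stromal transporter, with 32.7, 37.7, 46.3, 38.7 and 43.1 CPM in the old libraries. Young libraries had 108, 130.4, 149, 135 and 111 CPM (log2 fold change -1.68 ± 0.15 (SE), adjusted p = 9.74e-07). Of 6 carbonic anhydrases 3 rose and 0 fell, and of 4 S100 genes that fell S100a8 and S100a9 are given above. Zinc finger genes named Zfp gave 1 higher and 5 lower of 293.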
